A study of Homo sapiens with 4 samples.

Results

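The array titled MIF siRNA 2# measured gene expression in HEK293 cells, a human embryonic kidney line, after siRNA against MIF at a labelled dose of 50 pmol/ml. It was compared with both control arrays of the study, so 3 of the 4 arrays enter the comparison. The control RNA array held RNA from HEK293 cells transfected with a control RNA of unstated sequence, and the untreated array held RNA from HEK293 cells that the labels call normal. All cells were labelled as sampled at 24 h, the transfections used a cationic lipid reagent, and the design text names doses of 50 and 100 pmol/ml. The fourth array, MIF siRNA 1#, carries no dose in its label and served to set the normalization and to show values beside those of 2#. The labels do not say whether 1# and 2# share an siRNA sequence, or whether any arrays came from separate cultures.

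MIF encodes macrophage migration inhibitory factor, a small cytokine that many cells store in the cytoplasm and release on demand. Outside the cell it binds CD74 together with CD44, or the chemokine receptors CXCR2 and CXCR4, and signals through the ERK and PI3K-AKT pathways. Inside the cell it binds COPS5, a subunit of the COP9 signalosome. An siRNA guides Argonaute proteins to a matching transcript, which is then cut, so the level of MIF mRNA itself is the direct readout.

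Each array reported 48701 probes as linear fluorescence, without negative values, and the median signal ranged from 71.9 to 78.5 over the 4 arrays. After quantile normalization each gene was represented by its brightest probe, and 13755 genes were kept, those with a mean signal over 75.6, the median across probes. Every condition had 1 array, and control RNA and untreated are different conditions. The differences below are therefore sizes without a test, and a difference between conditions cannot be told apart from a difference between single arrays. Markers of the HEK293 line were present: in 2# the keratin genes KRT8 and KRT18 had signals of 11862 and 16965, vimentin (VIM) 7094 and the neurofilament gene NEFL 3633. CDH2 and HOXD10, of the same marker list, were dimmer at 802 and 233, and the kidney gene PAX2 was below the filter. Of 14 markers of other cell types, 6 were below the filter, including albumin (ALB), the T cell gene CD3E and the collagen gene COL1A2. The sum of the 8 kept was 963 in 2#, 903 in control RNA and 877 in untreated cells. Among these 8, VWF had 298 in 2#, 278 in control RNA and 244 in untreated cells, so it was brighter than HOXD10 in 2#.

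MIF had the signal 17040.2 in 2#, 22463 in control RNA and 21908 in untreated cells. The signal in 2# was therefore 75.9% of control RNA and 77.8% of untreated, or -0.40 and -0.36 on the log2 scale. It lay below both controls, which differed from each other by 0.04. In 1# the same probe gave 11614, so 2# held the smaller reduction. DDT, the close homolog of MIF, stood at 9975 in 2# against 11234 for control RNA and 10749 for untreated cells.

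Signals of 2# were at least 1.5-fold from both controls in the same direction in 178 genes, 120 higher and 58 lower. These are 0.872% and 0.422% of the 13755 genes kept, or 1.29% together. The same rule applied to control RNA against untreated gave 9 higher and 4 lower genes (0.0654% and 0.0291%), although that rule asks for a distance from 1 array and not from both controls. Over all genes kept, the SD of the log2 difference was 0.25 for 2# minus control RNA, 0.22 for 2# minus untreated and 0.13 for control RNA minus untreated. Only 10 higher and 4 lower genes (0.0727% and 0.0291%) passed 2-fold, and 811 higher and 529 lower genes (5.9% and 3.85%) passed a smaller size of 0.32 on the log2 scale. With arrays scaled only to one common median, the 1.5-fold rule gave 267 higher and 28 lower genes, so the higher share was 90.5% instead of 67.4%. Of 13758 genes kept under that scaling, 7657 lay above both controls and 3467 below, with medians of 0.06 and 0.09. List values given below for that scaling include this shift of all genes. Both differences of a gene share the 2# value, so agreement in sign between them is no independent check: 42.4% of genes kept lay above both controls at any size and 36.6% below both. These shares, with 0.872% higher and 0.422% lower past 1.5-fold, are the background for the list counts below.

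**Figure D1:**
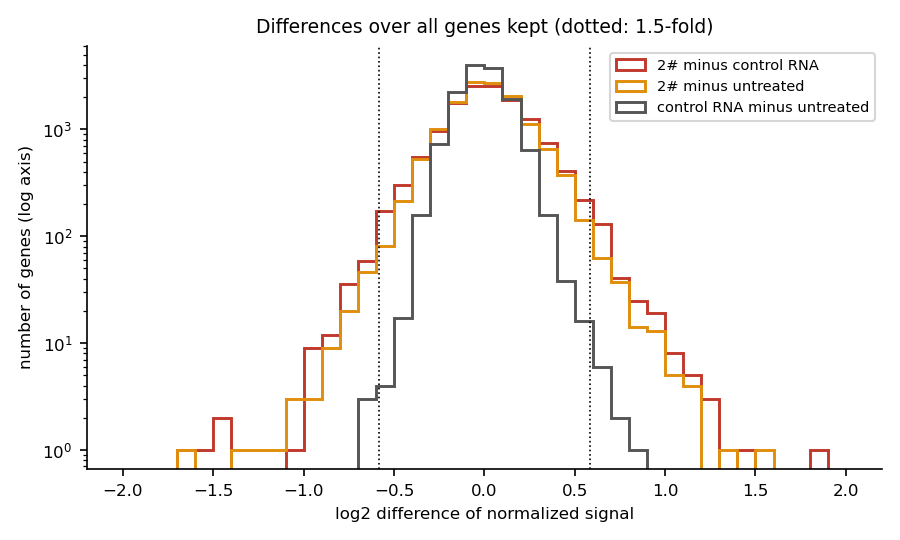
Number of genes (vertical, log axis) in bins of 0.1 by log2 difference of normalized signal (horizontal), for the 13755 genes kept. The outlines for 2# minus control RNA (SD 0.25) and 2# minus untreated (SD 0.22) are wider than that for control RNA minus untreated (SD 0.13), and dotted lines mark 1.5-fold.

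At the edge of the rule, CDKN1B was just inside at 1.501-fold and NRCAM just outside at 1.4996-fold among higher genes. Among lower genes ELP5 was inside at 1.506-fold and ARMC10 outside at 1.4993-fold. The median gene past the rule was 1.62-fold from its nearer control on the higher side and 1.63-fold on the lower side. The higher genes had a median mean signal of 449 and the lower ones 664, against 317 for all genes kept. Of the higher genes 118 were protein-coding, 1 was a small nucleolar RNA gene (SNORD15B) and 1 a long noncoding RNA gene (H19). The span of the gene on the chromosome had a median of 36151 bases for higher genes, 15900 bases for lower genes and 27592 bases for all genes kept. A check of promoter GC content is void, because 75% of the higher genes and 75.9% of the lower ones had a promoter sequence, short of the share such a check needs.

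The gene furthest above both controls was IGFBP5, which encodes a secreted protein that binds insulin-like growth factors. Its signal was 649 in 2#, 185 in control RNA and 222 in untreated cells, or 3.51-fold and 2.93-fold higher. In 1# it was 2420.3. The other members of the insulin-like growth factor list stood closer to the controls. IGF2, the fetal growth factor, had 143 in 2# against 92.6 and 103 in control RNA and untreated, and IGF1R, its main signalling receptor, 2109 against 1341 and 1622. IRS2, an adaptor of that receptor, had 1576 against 1195 and 1284, and IGFBP7 11820 against 9042 and 10038. IGFBP3 had 245 against 304 and 269. Of the 16 members kept, 1 was at least 1.5-fold higher and 0 lower, with medians of 0.25 and 0.22 from control RNA and untreated, against 0.02 and 0.01 over all genes kept.

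**Figure D2:**
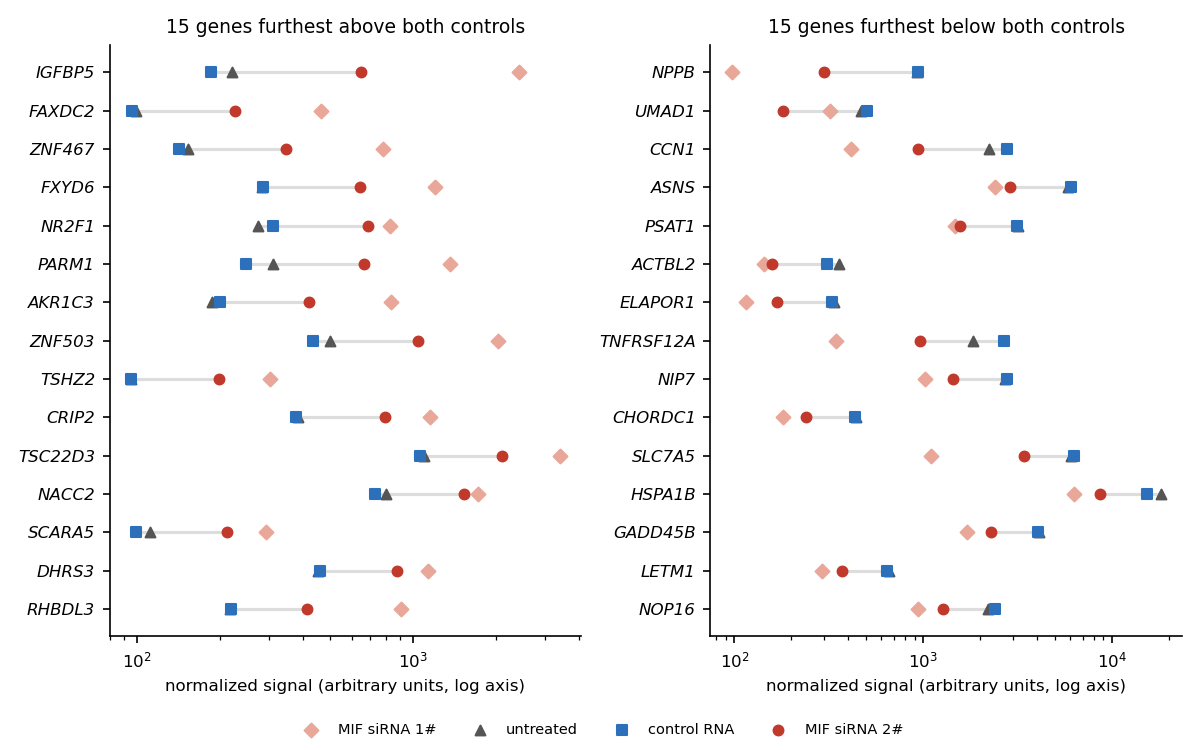
Normalized signal (horizontal, log axis, arbitrary units) of the 15 genes furthest above and the 15 furthest below both controls in MIF siRNA 2#, 1 point per array. Grey lines join 2# with its controls. By the rule that chose the 30 genes, 2# lies outside both controls, from 1.73-fold (NOP16) to 3.10-fold (NPPB) away from the nearer one.

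Transcription factors of embryonic development stood higher as a list, which was chosen with earlier results of these data known. Its members ZNF467, NR2F1, ZNF503 and TSHZ2 are also among the 15 genes furthest above both controls. The counts and medians of this list therefore describe the chosen members only. Of 25 measured members, 22 were above both controls, 6 at least 1.5-fold, and 1 was below both. The medians were 0.39 against either control, and 0.47 and 0.43 with arrays scaled to the same median. ZNF467, a zinc finger gene, had 345 in 2# against 142 for control RNA and 153 for untreated cells. NR2F1, which encodes the orphan nuclear receptor COUP-TF1, had 688 against 311 and 273. The zinc finger repressor gene ZNF503 had 1047 against 434 and 501.

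The teashirt zinc finger genes behaved unevenly in size. TSHZ2 had 199 in 2# against 95.3 and 95.2 in the controls, TSHZ1 519 against 366 and 377, and TSHZ3 223 against 171 and 169. The T-box repressor genes TBX3 and TBX2 were 1.82-fold and 1.53-fold above the nearer control. Among kidney developmental genes, EYA1 had 152 against 104 and 112, GATA3 254 against 161 and 176, and SIX2 103 against 75.3 and 80.2, the last close to the filter. WT1 had 343 against 371 and 366, and LHX1 184 against 190 and 179. The ID genes, inhibitors of basic helix-loop-helix factors and targets of BMP signalling, had nearer-control differences of 0.29 (ID1), 0.40 (ID2) and 0.37 (ID3).

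Genes known as targets of FOXO factors, which PI3K-AKT signalling keeps out of the nucleus, had medians of 0.26 from control RNA and 0.12 from untreated. Of 29 members, 6 were at least 1.5-fold higher and 1 lower. Scaling to the same median gave the same counts, with medians of 0.40 and 0.26. TSC22D3, which encodes the glucocorticoid-induced leucine zipper protein GILZ, had 2108 in 2# against 1063 and 1093 in control RNA and untreated. BMF, a BH3-only gene that promotes apoptosis, had 368 against 165 and 195. BCL6, a transcriptional repressor gene, had 605 against 361 and 370.2, and YPEL3 646 against 366 and 397. FOXO4 itself had 1415 against 891 and 797, FOXO3 4349 against 2991 and 2844, and FOXO1 1411 against 1094 and 1267.

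CDKN1B, which encodes the cyclin-dependent kinase inhibitor p27, had 1930.4 in 2# against 1219 and 1286. Other members went the other way. GADD45B, a stress-induced gene, had 2295 against 4038 and 4110.3, BCL2L11, which encodes the BH3-only protein BIM, 146 against 183 and 178, and CITED2 993 against 1393 and 1248. The list is therefore split between members above and below the controls, with 17 above both and 8 below both.

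The remaining genes of the top 15 on the higher side have varied roles. FAXDC2 had 227 in 2# against 96.2 and 99.1 in control RNA and untreated. FXYD6, whose protein tunes the Na,K-ATPase, had 642 against 285 and 283, and the transmembrane mucin gene PARM1 663 against 248 and 312. AKR1C3, an aldo-keto reductase that converts steroids and prostaglandins, had 421 against 201 and 186. Its paralogs are near-identical in sequence, so its probe may also report them.

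CRIP2, a LIM domain gene, had 791 in 2# against 375 and 384, NACC2 1533 against 726 and 800.2, and the scavenger receptor gene SCARA5 212 against 99.1 and 111. DHRS3, which reduces retinal to retinol, had 876 against 461 and 451, and the rhomboid family gene RHBDL3 414 against 219 and 217. These 9 genes were chosen by their distance from the nearer control. That the 2 controls lay closer to each other than to 2# follows from this choice and is no further check.

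Furthest below both controls was NPPB, which encodes the precursor of brain natriuretic peptide. Its signal was 299 in 2# against 937 for control RNA and 926 for untreated cells, or 3.13-fold and 3.10-fold lower, and it was 97.1 in 1#. CCN1, a matricellular protein gene induced by serum and by tension through SRF and YAP, had 937 against 2775 and 2240.0. TNFRSF12A, the receptor of the cytokine TWEAK, had 959 against 2683 and 1828, so its distance depended on the control, at 2.80-fold and 1.91-fold.

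The list of SRF and YAP targets held 6 of 27 members at least 1.5-fold lower and 0 higher, with medians of -0.27 from control RNA and -0.09 from untreated. With arrays scaled to the same median the medians were -0.15 and -0.01, with 5 members at least 1.5-fold lower and 1 higher. ACTBL2, an actin-like gene whose probe may also read other actins, had 159 against 311 and 359. The matricellular gene CCN2 had 4411 against 7211 and 7222, and TAGLN, which encodes the actin-binding protein transgelin, 1026 against 1621 and 1661. ACTA2, smooth muscle actin, was above both, with 4871 against 3166 and 3361. THBS1 had 299.7 in 2#, 364 in control RNA and 524 in untreated cells. ELAPOR1, an endosome and lysosome gene outside this list, had 169 against 327 and 336, and LETM1, a mitochondrial ion exchange gene, 371 against 646 and 656.

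Genes of amino acid synthesis and the ATF4 response, which cells raise when amino acids are scarce, had the lowest median of the lists against control RNA, at -0.42, and -0.27 against untreated. Of 23 members kept, 18 were below both controls, 3 of them at least 1.5-fold, and 2 were above both. With arrays scaled to the same median the medians were -0.33 and -0.20, with 2 members at least 1.5-fold lower. ASNS, asparagine synthetase, had 2869 in 2# against 6084 for control RNA and 5872 for untreated cells. PSAT1, of serine synthesis, had 1570.4 against 3127 and 3195, and MTHFD2, of the mitochondrial folate cycle, 523 against 863 and 799. These 3 genes lay outside a pair of controls that differed by at most 1.08-fold. The transcription factor genes CEBPG and ATF4 had 1193 against 1699 and 1892, and 2166 against 2941 and 2759. PHGDH and SHMT2, of the same serine and glycine pathway, lay between the controls. DDIT4 was above both, with 2954 against 1997 and 2251.

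The promoters of 3 of these genes and of CHORDC1 are shown because they carry the letters searched for. For the ATF4 list the core of the amino acid response element, TGATGNAA, was searched on both strands in windows from 250 bases before to 50 bases after each annotated start. It was found in 5 of 22 list genes with a window (22.7%), in 5 of 90 higher genes and 4 of 44 lower genes, and in 4.46% of all 27305 genes with a window. Only 75% of the higher and 75.9% of the lower genes had a window. The 27305 genes include many that were not kept here, so these shares describe unlike sets. The list genes with a match were ASNS, MTHFD1L, ATF3, CHAC1 and CEBPG. Their differences from the nearer control in 2# were -1.03, -0.47, -0.41, -0.16 and -0.51 on the log2 scale, while PSAT1 and MTHFD2 had no match. For the heat shock list the motif was the heat shock element, 3 alternating blocks of GAA and TTC with 2 free bases between them. It was found in 6 of 27 list genes (22.2%) and in 0.608% of all genes with a window. Among higher genes 0 of 90 held it, and among lower genes 1 of 44 (2.27%), which was CHORDC1. Each motif was picked to match its list of response genes, so a larger share in the list is no result about 2#. CHORDC1 held 3 overlapping matches. All sequences are from RefSeq on GRCh38.p14, 5′ to 3′ on the gene's own strand, each cut to a stretch around the match, and carry the matched letters in capitals.
ASNS, chr7:97872429-97872526, minus strand, match from 68 to 61 bases before the start: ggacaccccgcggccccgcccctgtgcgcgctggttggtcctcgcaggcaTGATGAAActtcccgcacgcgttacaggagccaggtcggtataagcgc
CEBPG, chr19:33374021-33374112, plus strand, match from 42 to 35 bases before the start: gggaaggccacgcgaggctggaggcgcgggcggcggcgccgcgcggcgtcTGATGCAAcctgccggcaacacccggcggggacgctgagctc
MTHFD1L, chr6:150866307-150866404, plus strand, match from 129 to 122 bases before the most downstream of 3 annotated starts, and after 1 of the others: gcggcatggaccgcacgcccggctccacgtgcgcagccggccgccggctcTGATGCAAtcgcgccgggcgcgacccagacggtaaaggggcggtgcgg
CHORDC1, chr11:90223050-90223159, minus strand, matches from 60 to 38 bases before the start: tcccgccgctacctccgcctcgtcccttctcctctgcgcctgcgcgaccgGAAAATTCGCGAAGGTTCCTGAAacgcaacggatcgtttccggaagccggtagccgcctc

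Amino acid transporters did not share a direction, with 9 of 19 members above both controls and 9 below, and medians of 0.00 and -0.01 that were 0.065 and 0.061 with arrays scaled to the same median. SLC7A5, the large neutral amino acid transporter, had 3404 in 2# against 6322 and 6054 in control RNA and untreated. The cystine transporter gene SLC7A11 had 92.9 against 131 and 165, near the filter, and SLC7A6 and SLC36A1 were 1.36-fold above the nearer control. Cytosolic aminoacyl-tRNA synthetases, which load amino acids onto tRNA and some of which ATF4 induces, had medians of -0.10 and -0.20. Of these 19 genes 13 were below both controls, led by NARS1 (552 against 903 and 815) and MARS1 (1605 against 2330.0 and 2552), and 0 passed 1.5-fold in either direction.

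Ribosome biogenesis genes, whose products process and assemble ribosomal RNA in the nucleolus, had medians of -0.31 from control RNA and -0.28 from untreated. Of 30 members, 25 were below both controls, 4 at least 1.5-fold, and 2 were above both. NIP7 had 1442 in 2# against 2771 and 2710.0, NOP16 1276 against 2404 and 2213, RRP9 516 against 865 and 874, and RRS1 956 against 1505 and 1531. Scaling to one common median gave medians of -0.24 and -0.18, with 3 members past 1.5-fold.

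Heat shock and chaperone genes had medians of -0.19 and -0.28, with 18 of 25 below both controls and 2 at least 1.5-fold lower. CHORDC1, a cochaperone of HSP90, had 239 in 2# against 435 and 443. HSPA1B, an inducible HSP70 gene, had 8630.4 against 15230.0 and 18056, but its near-identical copy HSPA1A, which was below the filter here, may share its probe. HSPH1 had 1759 against 2586 and 2733, and CCT8, a subunit of the TRiC chaperonin, 5513 against 8173 and 8056. Among the motif-bearing genes HSPA8 and HSP90AB1 lay between the controls, and HSP90AA1, HSPD1 and DNAJA1 were lower than the nearer control by 0.24, 0.17 and 0.27.

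Proteasome genes had medians of -0.21 and -0.16, with 28 of 33 below both controls, 3 above both, and 0 past 1.5-fold. The activator gene PSME3 had 1230.2 against 1896 and 1844, which is 1.499-fold below the nearer control. The assembly chaperone gene PSMG1 had 1092 against 1807 and 1568, and the core subunit gene PSMA6 1091 against 1690 and 1546. The control RNA array stood 0.07 above untreated in the median of this list.

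**Figure D3:**
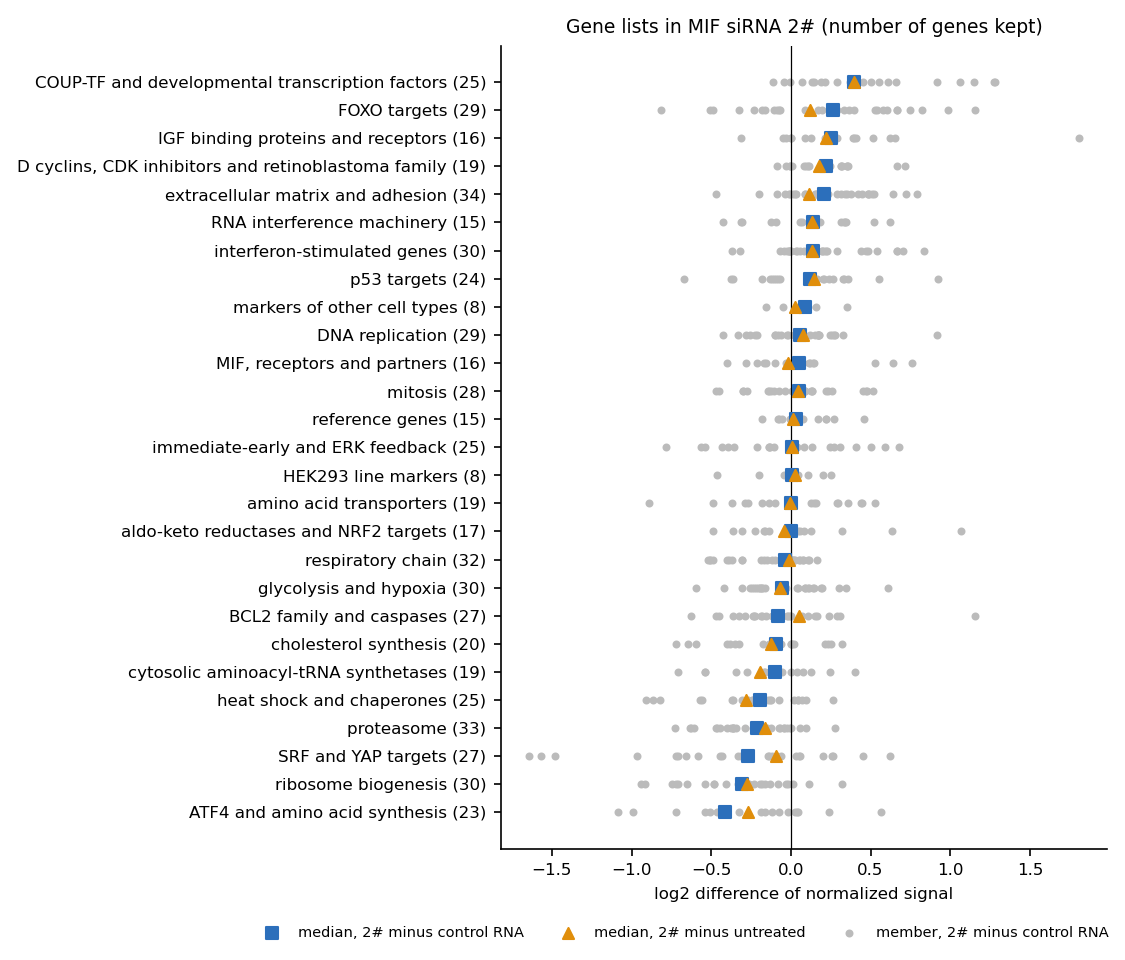
Log2 difference of 2# from control RNA for each measured member (grey points) of 27 gene lists, with the median from control RNA (squares) and from untreated (triangles). Developmental transcription factors have the highest medians (0.39) and the ATF4 list the lowest against control RNA (-0.42). All lists were chosen with earlier results of these data known. The median signs of 4 lists change with arrays scaled to the same median, namely MIF partners, amino acid transporters, cholesterol synthesis and the respiratory chain.

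Among cell cycle genes, D cyclins, CDK inhibitors and the retinoblastoma family had medians of 0.22 and 0.18, with 14 of 19 above both controls, 2 below, and CDKN1B past 1.5-fold. Scaling to the same median put this list at 0.24 and 0.31 in the median, DNA replication genes at 0.11 and 0.17, and mitosis genes at 0.075 and 0.12. CCND2, which encodes cyclin D2, had 4117 in 2# against 2507 and 2993, and CDKN1A, which encodes p21, 13090 against 10227 and 10058. DNA replication genes had medians of 0.06 and 0.08, and CDT1, which licenses origins, was the member past 1.5-fold, with 4128 against 2189 and 2097. Mitosis genes had medians of 0.05 and 0.05 with 0 of 28 past 1.5-fold. CDC25B, which activates mitotic kinase, had 4389 against 3066 and 3472, while UBE2C and CCNB1 had 224 against 307 and 281, and 274 against 336 and 345.

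The p53 targets had medians of 0.12 and 0.14, with TP53INP1 at 629 in 2# against 332 and 368 as the 1 of 24 members past 1.5-fold. Scaling to the same median gave 0.18 and 0.22. The p53-induced genes TIGAR and TP53I3 went the other way, at 734 against 1170.1 and 1023, and 281 against 364 and 362. The BCL2 family and caspase list had medians of -0.08 and 0.05, with BMF above and the prosurvival gene MCL1 at 331 against 510 and 415.

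Among MIF, its receptors and its binding partners, the receptor gene CXCR4 had 551 in 2# against 326 and 375, the protease gene HTRA1 2605 against 1673 and 1777, and the thioredoxin inhibitor gene TXNIP 7643 against 5306 and 5787. All 3 were above both controls and below 1.5-fold from the nearer one. CD74 had 88.8 against 84.4 and 84.3, close to the filter, and CD44 lay between the controls, at 2743 against 2483 and 2835. COPS5 had 3929 against 4554 and 4742. The list as a whole had medians of 0.05 and -0.02 and 0 of 16 members past 1.5-fold. With arrays scaled to the same median, 2 members were at least 1.5-fold higher. Its medians were then 0.037 and 0.040, against 0.06 and 0.09 over all genes kept.

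Immediate-early and ERK feedback genes had medians of 0.01 and 0.01, with 11 of 25 above both controls and 9 below, and of 0.089 and 0.15 with arrays scaled to the same median. These counts are near the shares over all genes kept, 42.4% above both controls and 36.6% below. IER3 had 2258 in 2# against 3881 and 3722, and was the 1 member past 1.5-fold. JUN had 317 against 469 and 489 and FOSL1 216 against 314 and 353, whereas EGR1, the first-line growth factor response gene, had 280 against 186 and 207. Interferon-stimulated genes had medians of 0.14 and 0.13, with 20 of 30 above both controls and 3 below. Scaling to the same median gave 0.20 and 0.27, with 25 above, 1 below and 5 past 1.5-fold. All genes kept then had medians of 0.06 and 0.09, with 7657 of 13758 above both controls and 267 past 1.5-fold. TRIM22 had 225 against 126 and 133, IFIT3 267 against 164 and 163, and IFI44L 166 against 105 and 102. These were the 3 members past 1.5-fold after quantile normalization. The RNA interference list had medians of 0.14 and 0.13 (0.25 and 0.26 with arrays scaled to the same median) and 0 of 15 past 1.5-fold. AGO2, the slicing Argonaute, had 2786 against 1938 and 1783.

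Sterol synthesis genes had medians of -0.09 and -0.13, the latter turning to 0.01 with arrays scaled to the same median. HMGCS1 had 3053 in 2# against 4780.1 and 4826 and MSMO1 314 against 517 and 489, the 2 of 20 members past 1.5-fold. Matrix and adhesion genes had medians of 0.21 and 0.11, with 22 of 34 above both controls, 4 below and 0 past 1.5-fold. Scaling to the same median gave 0.30 and 0.19, with 27 above, 2 below and 2 at least 1.5-fold higher. That scaling also put all genes kept at medians of 0.06 and 0.09. The laminin gene LAMB2 had 527 against 305 and 356 and the collagen gene COL6A2 458 against 278 and 312. Control RNA itself stood -0.12 from untreated in the median of this list. Aldo-keto reductases and NRF2 targets had medians of 0.00 and -0.04, with AKR1C3 and the heme oxygenase gene HMOX1 (219 against 141 and 143) past 1.5-fold.

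The remaining lists lay close to the controls. Respiratory chain genes had medians of -0.04 and -0.01 (-0.11 and 0.011 with arrays scaled to the same median), with UQCRH at 233 against 328 and 324. Glycolysis and hypoxia genes had -0.05 and -0.07, with ANKRD37 at 202 against 304 and 268. Reference genes had 0.03 and 0.01 with 0 of 15 past 1.5-fold, the HEK293 markers 0.01 and 0.02, and the markers of other cell types 0.09 and 0.02, among which COL3A1 had 134 against 105 and 105.

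The values of 1# can be set beside those of 2#, against the same controls. The 120 higher genes had a median of 0.70 from the nearer control in 2# and 1.12 in 1#, and the 58 lower genes -0.70 and -1.06. Over all genes kept, 1# was at least 1.5-fold from both controls in 705 higher and 538 lower genes (5.13% and 3.91%). The signal of 1# lay above that of 2# in 99 of the higher genes and below it in 51 of the lower ones. Over all 13755 genes kept, it lay above in 6885 and below in 6861. The members were chosen by their distance in 2# from the same controls, so these counts are a description. Some list medians were close in both arrays and others were not. The ATF4 and amino acid list had a median from control RNA of -0.42 in 2# and -0.36 in 1#, and from untreated -0.27 and -0.24. Its members at least 1.5-fold lower were 3 in 2# and 6 in 1#, and those higher 0 and 1. ASNS (2869 in 2#, 2394 in 1#) and MTHFD1L (1152 and 907) were lower in 1#. Medians from control RNA were also close for the insulin-like growth factor list (0.25 and 0.26) and the RNA interference list (0.14 and 0.16). Ribosome biogenesis genes had -0.31 in 2# and -0.55 in 1# from control RNA, and FOXO targets 0.26 and 0.63. The signals of PSAT1 (1570.4 in 2#, 1482 in 1#), CEBPG (1193 and 1210) and MTHFD2 (523 and 494) were close in both MIF siRNA arrays, while those of SLC7A5 (3404 and 1106) and NPPB (299 and 97.1) were not. No test was made of these differences, since each array is alone.

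**Figure D4:**
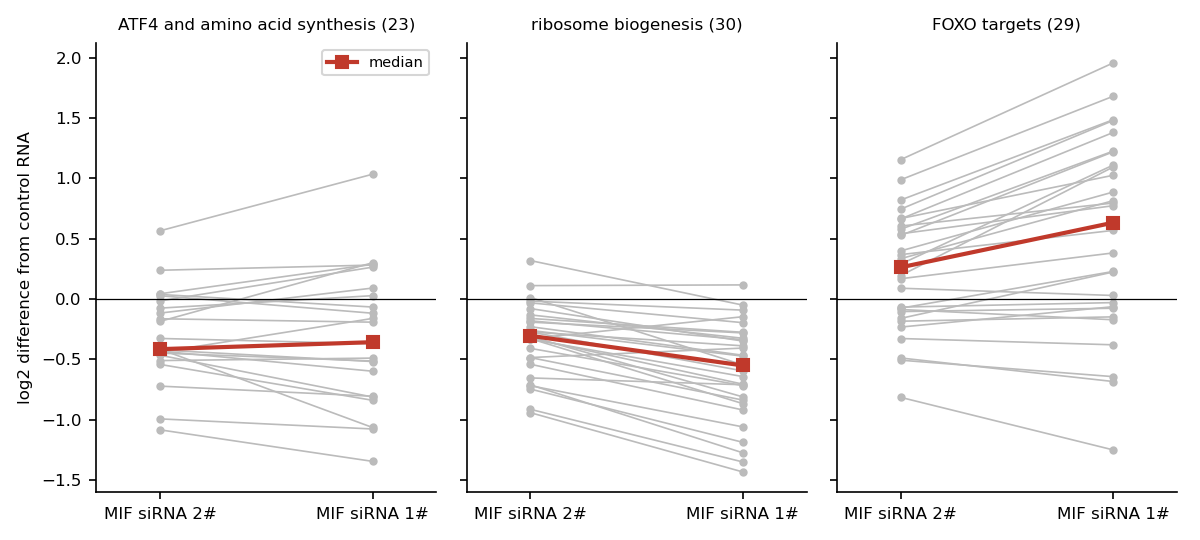
Log2 difference from control RNA (vertical) of each measured member (grey) and of the list median (red) in MIF siRNA 2# and 1#, for 3 gene lists. The control RNA value is shared by both ends of each line. The ATF4 list median is -0.42 in 2# and -0.36 in 1#, ribosome biogenesis -0.31 and -0.55, and FOXO targets 0.26 and 0.63.

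In 21 of the 178 genes 1# was under 1.5-fold from at least one control, 18 of them higher and 3 lower. The higher genes in which 2# most exceeded 1# were BPIFB1 (130 in 2#, 95.0 in 1#, 74.3 in control RNA and 80.3 in untreated cells) and SNORD15B (550.2, 416, 291 and 266). They were followed by EEF1A2, a translation elongation factor of neurons and muscle (6023, 4705, 3204 and 3776), TBX2 (658, 525, 432 and 412) and LSM11, a component of the U7 particle that processes histone mRNA (473, 393, 259 and 276). BPIFB1 was close to the filter in both controls. The lower gene with the largest such gap was UMAD1, with 180.4 in 2# and 323 in 1# against 506 for control RNA and 469 for untreated cells. PTGES3, the HSP90 cochaperone p23, had 206 in 2# and 225 in 1# against 348 and 337. MTARC1 had 801 and 848 against 1373 and 1416, MAGEB2 106 and 111 against 189 and 178, and EIF1AX 1687 and 1760.0 against 2650 and 2556. In 2# and 1# alike these genes lay on the same side of both controls. Both arrays share the controls and the genes were chosen by 2#, so this is a description. The opposite side was seen in 0 of the 120 higher and 0 of the 58 lower genes, against 1319 of 13755 genes kept.

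Against control RNA alone 257 genes were at least 1.5-fold higher and 140 lower (1.87% and 1.02%, or 2.89% together), and against untreated alone 154 and 94 (1.12% and 0.683%, or 1.8% together). Genes past that size from one control only include those in which the controls themselves differed most. FKBP2, MYDGF, GAR1, UNG and ENSA were higher in control RNA than in untreated cells. FKBP2 had 426 in 2#, 696 in control RNA and 399.9 in untreated cells, and MYDGF 2667, 4128 and 2471. RNA28SN5, a 28S ribosomal RNA gene, had 7913 in 2#, 4497 in control RNA and 6936 in untreated cells, and ANKRD50 658, 431 and 603. SNORA25 and LUC7L3 were low in 2# (197 and 126) and in control RNA (202 and 131), against 308 and 189 in untreated cells. In FKBP2, MYDGF, UNG and ENSA 2# lay between the controls, so its direction depended on the control used. In GAR1, SNORA25, LUC7L3, RNA28SN5 and ANKRD50 it lay on one side of both, and only the size depended on the control. The 9 were picked as past 1.5-fold from 1 control only, so by definition none can be among the 178.

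Most of the 178 genes, 136, had 1 probe. For 28 genes another probe passed the filter on dim probes, 37 probes in all, of which 27 lay on the same side of both controls and 3 were at least 1.5-fold away. Most of these other probes were dim. Among 13 with a mean control signal over 2 times the filter, 11 had the same side as the brightest probe and 7 shared that side by at least 0.32 on the log2 scale. The other probe of S100A4, a calcium-binding protein gene, had 587 in 2# against 253 and 275, that of NKIRAS2 152 against 277 and 243, and that of GET4 430.0 against 705 and 653. The other probe of NACC2 had 1087 against 958 and 889, a nearer difference of 0.18 where the brightest probe gave 0.94. Among the dim other probes, those of FAXDC2 (0.21) and TSC22D3 (0.026 and 0.16) had smaller nearer differences than the brightest probe. At the dim other probes of TSHZ2 and IFI44L, 2# lay between the controls. For ABCC5 another probe had 250 against 265 and 280, and for ELP5 273 against 206 and 209, both opposite to the brightest probe. All probes of a gene on 1 array read the same RNA, so they check the probe and not the sample.

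**Figure D5:**
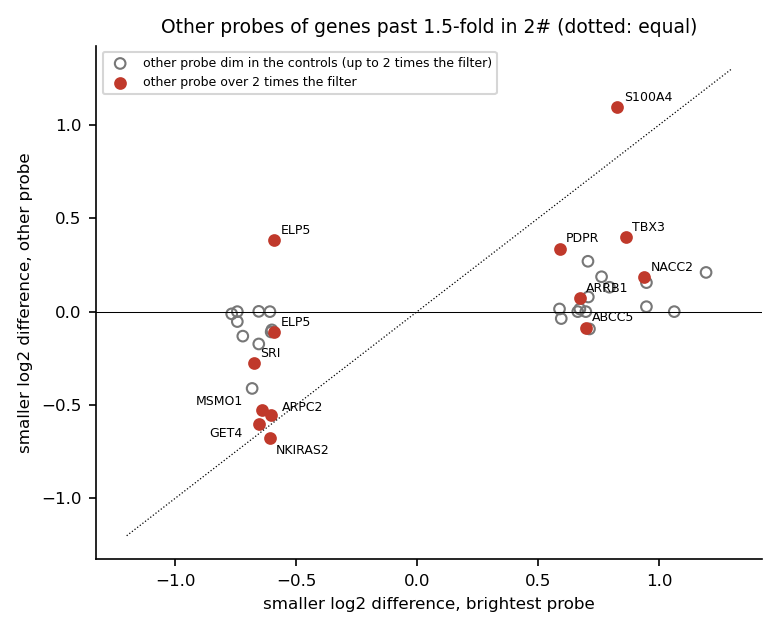
Log2 difference from the nearer control in 2# (0 where 2# lies between the controls) for the brightest probe of a gene (horizontal) and for its other probes (vertical), for 37 probes of 28 genes past 1.5-fold. Filled points are the 13 probes with a control signal over 2 times the filter, of which 11 share the side of the brightest probe and ABCC5 and 1 probe of ELP5 do not.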

How the data were processed

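Total RNA was labelled and hybridised to single-colour Illumina Human-6 bead arrays, per the labels. Each sample table, as deposited, gives a linear intensity for every probe from BeadStudio, per the submitters' processing notes (version not given in the sources used here). The lowest intensity was 39.8 or more on every array and the medians differed, so a background remains and differences of dim genes are understated. No detection p-values were used here. The series value table, deposited by the authors, holds normalized intensities of the same arrays (every median 73.8, method not given in the sources used here). From row 19832 on its identifiers stand 1 row off, so it was matched by position (lowest r of log2 values 0.9996) and used as an alternative.

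Of 48701 probes, 23687 had 1 gene in the platform annotation, 35 several and 24979 were not listed. Symbols were updated through RefSeq identifiers of GRCh38.p14 (23651 matched). Intensities of all 4 arrays were quantile-normalized (Python 3.11.15, numpy 2.4.6), floored at 32 (0 values were below) and log2-transformed. The brightest probe represented a gene, and 13755 of 18774 genes above the median probe signal were kept. The mean over all 4 arrays set this filter, so a gene bright in 1 array could pass.

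No test was made, since each condition has 1 array, and the number of arrays limits precision. Named were MIF, the 15 highest and 15 lowest genes by the smaller of both differences, the 5 higher and 5 lower in which 2# most exceeded 1#, up to 4 members of each of 27 lists, and 5 genes each way by control difference. Placeholder names were passed over, and list members were also named for their role. Members and lists were chosen with earlier results of these data known. Alternatives were scaling to the same median, the series value table, normexp with an offset of 50 (limma 3.58.1), 3 arrays only, no filter, a filter at percentile 75, the mean of probes, a floor of 64, each control alone, a 2-fold rule and one of 0.32 on the log2 scale.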

Additional observations from a re-analysis of the deposited data

Results flagged for a closer look

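Of the probes the annotation did not list, 8203 passed the filter on dim probes, and the comparisons of genes did not use them. Against both controls 8 of these unnamed probes were at least 1.5-fold higher in 2# and 16 lower (0.0975% and 0.195%). The shares among the genes kept were larger, at 0.872% and 0.422%. Control RNA against untreated gave 4 higher and 3 lower unnamed probes at the same size (0.0488% and 0.0366%). The probe furthest above was ILMN_1764709, with 1112 in 2# against 443 and 492, and the furthest below was ILMN_1772292, with 195 against 342 and 347. Their genes are not named here, and the signals were not tested.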

How the results depend on the processing

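The 1.5-fold counts were 120 higher and 58 lower genes. Scaling to the same median gave 267 and 28, and the median of all genes kept then stood at 0.06 from control RNA and 0.09 from untreated. A 2-fold rule gave 10 and 4, and a rule of 0.32 on the log2 scale 811 and 529. Leaving out 1 control gave 154 to 257 higher genes and 94 to 140 lower ones, with the larger counts against control RNA alone (without untreated) and the smaller ones against untreated alone (without control RNA). The series value table, normexp, 3 arrays only, no filter, the percentile 75 filter, the mean of probes and the floor of 64 gave 97 to 120 higher and 46 to 60 lower genes. Of the 178 genes, 147 stayed past 1.5-fold at the same median (120 higher, 27 lower), 168 in the series value table and 142 with the mean of probes. MIF ranged from -0.43 to -0.35. Of 135 named genes, 45 moved by more than the control spread of 0.13 at the same median, 35 without untreated, 12 without control RNA and 18 with the mean of probes, and 1 reversed with the mean of probes: PTPRC, from -0.14 to 0.0075. The cholesterol synthesis median against untreated reversed from -0.13 to 0.014 at the same median. No paired analysis was possible because each condition has 1 array.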

Other observations

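These groups were chosen after the values were seen. Hedgehog signalling passes from the receptor PTCH1 through SMO to GLI transcription factors, and the surface proteins GAS1, CDON and BOC help the ligand bind. Of 18 measured genes of this pathway, 14 lay above both controls in 2# and 1 below, with 4 at least 1.5-fold higher. Over all genes kept, 42.4% lay above both controls, 36.6% below, and 0.872% were at least 1.5-fold higher. The effector gene GLI3 had 921 in 2# against 494 for control RNA and 553 for untreated cells. GAS1 had 1019 against 568 and 629, CDON 206 against 114 and 132, and GPC3, a glypican gene that binds the ligand, 668 against 385 and 433. BOC had 272 against 218 and 226 and the inhibitor gene SUFU 718 against 495 and 577. The pathway's response gene PTCH1 stood 0.15 above control RNA and 0.025 above untreated on the log2 scale, and GLI1, the other such gene, was below the filter on dim probes. The list's median was 0.15 from either control, or 0.28 and 0.25 with arrays scaled to the same median.

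Selenoproteins as a list had medians of 0.00 and 0.03. Among 21 measured members, the plasma selenium carrier gene SELENOP had 1099 in 2# against 547 and 620.5, and SELENOW 8128 against 5180.3 and 4991. SELENOF and SELENOM were lower, at 1269 against 1579 and 1605, and 3944 against 4877 and 4793. Of 18 measured cancer/testis genes on chromosome X, 3 were at least 1.5-fold lower, against 0.422% of all genes kept. SPANXC had 200.4 against 334 and 329, SPANXA2 174 against 272 and 308, and MAGEB2 106 against 189 and 178. The SPANX genes are near-identical, so their probes may read each other. Among 27 measured small nucleolar RNA genes, SNORD15B was the 1 past 1.5-fold, and SNORA70 had 584 against 766 and 800.0. SLC25A23, a mitochondrial carrier gene, had 4164 in 2#, 2523 in 1#, 3265 in control RNA and 3178 in untreated cells, so 2# lay above and 1# below both controls.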
